A study of Mus musculus with 31 samples.

Results

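The genes described here are 39 genes of DNA replication and S phase, taken as a fixed list: the subunits of the MCM2-7 helicase, factors that load and start it, the sliding clamp and its loader, single-strand binding proteins, primase and the replicative polymerases, enzymes that join Okazaki fragments, enzymes that make deoxynucleotides, and 3 regulators of the G1 to S transition. Each gene was read by 1 probe set, the one of highest mean over all 31 arrays, out of 18193 mouse genes with a probe set naming a single gene. All 39 were among the 14016 genes that passed a filter on low values and were tested. Levels are log2 of the deposited intensity plus 1, so a difference of 1 is a doubling, and levels of different genes cannot be set against each other because each probe set has its own response.

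Replication starts from origins at which ORC1, ORC6, CDC6 and CDT1 load the MCM2-7 ring during G1, and the ring becomes an active helicase in S phase when CDC45, the GINS complex and MCM10 join it. Behind the helicase, primase with polymerase alpha lays primers, polymerases delta and epsilon extend them on the PCNA clamp that RFC loads, and FEN1 and LIG1 process and seal the lagging strand. Many of these genes are switched on late in G1 by the E2F transcription factors once cyclin E kinase has acted on the retinoblastoma proteins, and in the thymus they are known for their expression in cycling immature thymocytes.

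RNA from C57BL/6 mice of 3 genotypes of NDR1, the kinase encoded by Stk38, had been hybridised to Affymetrix arrays that read the 3' ends of mouse transcripts: wild type (NDR1+/+, here WT), heterozygous (NDR1+/-, HT) and knockout (NDR1-/-, KO). Normal thymus was read on 4 arrays for each genotype, 2 from females and 2 from males. Thymic tumors, raised with the mutagen ENU at 100 mg per kg and taken when a tumor developed or by 9 months after ENU, were read on 5 WT, 7 HT and 7 KO arrays; 1 HT and 1 KO tumor came from males and all others from females. The labels name neither the mutant allele nor the cells in which it acts. The labels do not say whether the arrays of a group come from separate animals, so p-values measure the spread between these samples. The titles speak of thymocytes and tumor cells and the tissue label of thymus, and in whole-tissue RNA fewer cells of a type and less RNA per cell cannot be told apart.

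Signal of Stk38 was 11.69 to 12.03 in WT, 11.33 to 11.58 in HT and 10.64 to 11.34 in KO thymi, but 8.73 to 13.07 in tumors labelled KO, 3 of which (KO 03, KO 04 and KO 06) lay above every WT thymus. The labels do not place this probe set relative to the mutation, so the signal cannot check them, and genotypes below are those of the labels. T cell markers averaged 13.06 to 13.34 in the thymi and 11.63 to 12.63 in the tumors, and markers of double-positive thymocytes 13.39 to 13.62 and 7.51 to 12.03. The tumors were uneven in a further pair of measures, which are set beside the results that move with them. In 4 tumors (HT 01, HT 03, KO 04 and KO 06) 13 markers of B and plasma cells averaged 10.47 to 12.20, against 4.74 to 9.46 in the other 15 and 5.68 to 6.82 in the thymi. The ratio between signals of control probes at 3' and 5' transcript ends (log2), which rises as RNA is degraded or labelling shortens, was 0.26 to 0.50 in the thymi and 0.18 to 4.87 in the tumors. It was above every thymus in 15 tumors and not above the highest thymus in the other 4, which are WT 03, HT 02, HT 06 and KO 05.

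Promoter sequence was examined first, because control by E2F is known for many of these genes. RefSeq promoter windows of the mouse build GRCm38.p6, 250 bases before to 50 after the start, were found for 31 of the 39 genes. The 4 E2F motifs TTTGGCGC, TTTCGCGC, TTTCCCGC and TTTGCCGC were searched on both strands, and matches may overlap. At least 1 match was present in 11 of 31 windows (35.5%), against 626 of 27025 windows of all genes in the table (2.32%). The 11 were Mcm3, Mcm5, Mcm6, Mcm7, Cdc6, Cdt1, Orc1, Rfc3, Pola1, Pold1 and Pole2. Among 29 windows of other replication genes 9 held a match, and among 20 windows of mitosis genes 1 did. The letters CCAAT stood in 18 of the 31 windows (58.1%), against 37.9% of all windows and 18 of the 20 windows of mitosis genes. TTTGAA, the core of the CHR element of mitotic promoters, stood in 3 of 31 (9.68%), against 18.1% of all windows and 15 of the 20 of mitosis genes. These are letter matches in fixed windows and not sites shown to be bound. The table did not list Mcm4, Gins1, Gins2, Gins4, Rfc2, Pole, Prim2 or Ccne2.

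The 250 bases before the start are printed 5′ to 3′ on the gene's strand for 5 genes, with E2F matches in capitals. Mcm5 (chr8:75109259-75109508, plus strand) holds 2 matches that overlap on opposite strands, and Mcm6 (chr1:128359706-128359955, minus strand) holds 3, of which 2 overlap. Orc1 (chr4:108579204-108579453, plus strand) and Pola1 (chrX:93632156-93632405, minus strand) hold 1 each. Pcna (chr2:132253181-132253430, minus strand) is shown as a gene whose window holds none of the 4 motifs. Its signal fell in tumors, but the windows of E2f1 and Rpa2, whose signals rose, held 0 matches too. That of Pold1, which also rose, held 1. A link between matches and direction was not tested.
Mcm5: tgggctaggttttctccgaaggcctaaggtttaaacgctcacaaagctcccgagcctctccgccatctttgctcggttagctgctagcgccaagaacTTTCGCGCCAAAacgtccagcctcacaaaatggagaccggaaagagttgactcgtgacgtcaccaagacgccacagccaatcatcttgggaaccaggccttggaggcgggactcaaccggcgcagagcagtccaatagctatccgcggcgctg
Mcm6: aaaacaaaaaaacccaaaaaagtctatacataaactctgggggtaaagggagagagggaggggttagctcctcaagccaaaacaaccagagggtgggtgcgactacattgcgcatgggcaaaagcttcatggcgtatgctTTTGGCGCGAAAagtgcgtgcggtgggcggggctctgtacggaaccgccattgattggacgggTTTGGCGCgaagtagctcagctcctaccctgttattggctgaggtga
Orc1: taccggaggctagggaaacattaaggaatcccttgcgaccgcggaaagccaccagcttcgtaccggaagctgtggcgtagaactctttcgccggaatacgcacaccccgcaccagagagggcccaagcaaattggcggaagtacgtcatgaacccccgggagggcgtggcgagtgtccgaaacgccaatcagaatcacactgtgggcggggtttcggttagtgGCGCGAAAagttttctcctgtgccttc
Pola1: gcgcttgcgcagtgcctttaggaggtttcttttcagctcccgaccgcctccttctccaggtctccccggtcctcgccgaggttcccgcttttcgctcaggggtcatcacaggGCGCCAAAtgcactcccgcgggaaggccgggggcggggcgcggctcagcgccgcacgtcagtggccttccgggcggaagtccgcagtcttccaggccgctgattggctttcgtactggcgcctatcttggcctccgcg
Pcna: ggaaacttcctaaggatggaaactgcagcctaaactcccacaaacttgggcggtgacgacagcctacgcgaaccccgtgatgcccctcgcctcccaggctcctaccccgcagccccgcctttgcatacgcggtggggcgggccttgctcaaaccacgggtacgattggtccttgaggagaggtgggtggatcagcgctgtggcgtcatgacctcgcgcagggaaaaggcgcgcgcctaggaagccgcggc

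Averaged over the 39 genes, the level was 10.49 to 10.84 in the thymi and 9.06 to 11.33 in the tumors, so normal thymi were alike and tumors ranged widely. By group the mean was 10.75 ± 0.065 in WT thymi, 10.68 ± 0.13 in HT and 10.71 ± 0.12 in KO (SD, n = 4 each). It was 11.09 ± 0.087 in WT tumors (SD, n = 5), 10.50 ± 0.67 in HT tumors (SD, n = 7) and 10.48 ± 0.89 in KO tumors (SD, n = 7). The SD between tumors, pooled within genotypes, was above that between thymi in all 39 genes and in 94.7% of all genes tested. For the 39 genes its median was 0.154 in thymi and 0.835 in tumors, against 0.194 and 0.636 over all genes tested. Without the 4 tumors of highest B cell markers the median tumor SD was 0.577 for the 39 genes and 0.577 for all genes. Widest was Tyms, thymidylate synthase, which spanned 5.33 log2 units over the tumors, followed by Mcm10 with 5.12, Cdc45 with 4.89 and Orc1 with 4.88. Narrowest was Rpa1, a subunit of the single-strand binding protein RPA, with 0.78. No gene of the 39 separated all 19 tumors from all 12 thymi.

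**Figure D1:**
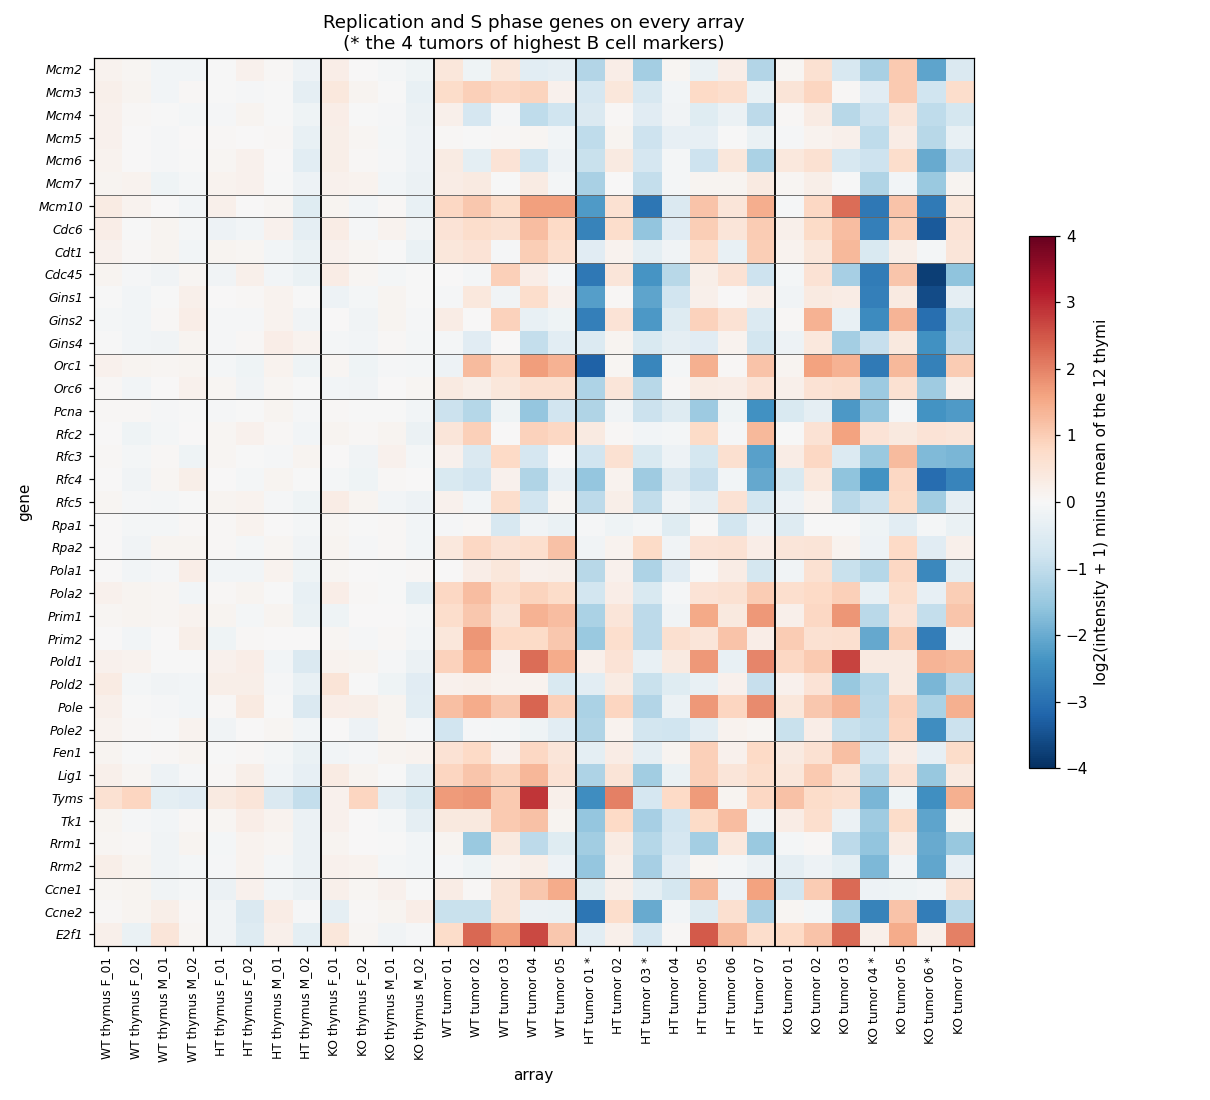
Each row is 1 of the 39 genes, grouped by role, and each column 1 array, grouped by tissue and genotype; colour is log2(intensity + 1) minus the gene's mean over the 12 thymi, and stars mark the 4 tumors of highest B cell markers. Thymus columns are nearly even, while the starred columns (HT tumors 01 and 03, KO tumors 04 and 06) are low in most rows.

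The low end of the tumors was made up of 4 arrays. The mean over the 39 genes was 9.48 in HT tumor 01, 9.67 in HT tumor 03, 9.43 in KO tumor 04 and 9.06 in KO tumor 06, against 10.46 to 11.33 in the other 15 tumors. They are the same 4 tumors in which B cell markers were highest. In 21 of the 39 genes all 4 lay below all 15 others, while 5.86% of all genes tested (821) did so, and in 27 of the 39 at least 3 of the 4 were among the 4 lowest tumors. KO tumor 06 was the lowest tumor in 21 of the 39. For these counts of lowest tumors the share of all genes was not counted. They therefore cannot be read as particular to replication genes. Mcm10 read 6.48, 5.86, 5.90 and 5.91 in HT 01, HT 03, KO 04 and KO 06. Cdc6, which helps to load the helicase, read 7.93, 9.02, 7.84 and 7.24 in the same order, and Orc1, the largest origin recognition subunit, 4.11, 4.73, 4.50 and 4.64. All 12 thymi lay at 8.25 to 9.09 for Mcm10, 10.24 to 10.90 for Cdc6 and 7.15 to 7.51 for Orc1, so these 4 tumors were below normal thymus as well as below the other tumors. Mcm4, Gins4, Pcna and Rfc2 had only 1 of the 4 among their 4 lowest tumors and Rpa1 had none: Rpa1 read 13.20, 13.18, 13.09 and 13.16, within its range of 12.50 to 13.28 in the other tumors. In the same 4 tumors mature T cell markers averaged 11.11 to 11.82 (5.41 to 9.27 in the others), neutrophil markers 6.997 to 8.56 (3.66 to 6.004), markers of double-negative thymocytes and Notch targets 7.39 to 8.98 (9.22 to 11.33), and mitosis genes 7.95 to 9.54 (9.56 to 11.63). Single markers could depart from these list means. Cd44, listed with the double-negative markers, was higher in the 4 tumors, at 11.492 to 12.787 against 8.295 to 11.76 in the others. The neutrophil markers Elane and Mpo differed little, with medians of 3.348 and 3.736 against 3.498 and 3.425. The part of these cells and of mitosis genes in the low replication values was not tested.

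Tumors were compared with thymi over all genotypes to see whether replication genes differ between ENU tumors and normal thymus. E2f1, Pold1, Rfc2 and Rpa2 rose and Pcna fell, and the other 34 genes did not pass the test. That is 4 of 39 higher and 1 lower at an adjusted p under 0.05 (limma, with Benjamini-Hochberg adjustment over all 14016 genes), where 11.6% of all genes were higher and 12.6% lower. The median difference, tumor minus thymus, was -0.13 over the 39 genes and +0.05 over all genes. Leaving out the 4 tumors of highest B cell markers gave 16 higher and 3 lower with a median of +0.27, where 16.5% of all genes were higher and 16.9% lower. With only the 4 tumors whose 3' to 5' ratio was not above the thymi, 26 were higher and 1 lower with a median of +0.48, where 24.9% of all genes were higher and 23.3% lower. This last selection was chosen after the data were seen, and it holds 1 WT, 2 HT and 1 KO tumor. With so few tumors in a group, the spread in its fit came mostly from the 12 thymi. The median SD of the 39 genes was 0.154 in thymi and 0.835 in tumors. Here and below, the p-values and counts of this selection therefore do not measure the spread between tumors. None of the 4 tumors of highest B cell markers is in this selection, so it leaves out the same low tumors. It holds KO tumor 05, whose mean over the 39 genes was the highest of all tumors, 11.33. The sign of the median therefore depended on which tumors were in the comparison. Fitted differences average the genotypes and adjust for sex, so they can depart from the plain difference of means given beside them. In the comparison over all tumors, 5 of 8 markers of double-negative thymocytes and Notch targets and 5 of 8 fibroblast markers were higher, and 5 of 6 double-positive and 5 of 8 thymic epithelial markers were lower. The part of these cells in the replication values was not tested.

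**Figure D2:**
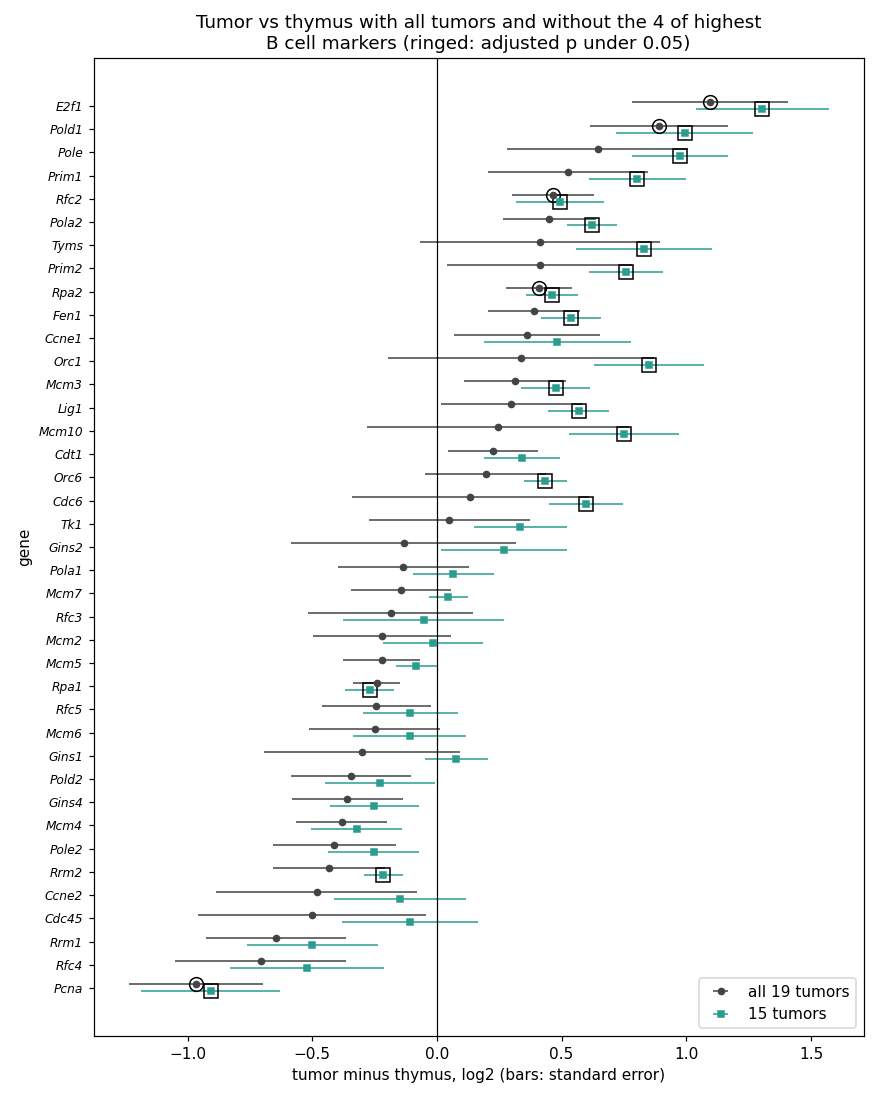
Circles give the tumor minus thymus difference (log2) of each of the 39 genes over all 19 tumors, squares the same without the 4 tumors of highest B cell markers, lines the standard error, and rings an adjusted p under 0.05. Ringed circles stand right of 0 for E2f1, Pold1, Rfc2 and Rpa2 and left of 0 for Pcna, while 16 squares are ringed on the right and 3 on the left.

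Of the 3 regulators of the G1 to S transition E2f1 rose, by more than any other of the 39 genes, and Ccne1 and Ccne2 did not pass the test. E2f1 encodes an activating E2F that switches on many of the others. The level of E2f1 was 7.72, 7.25, 8.0 and 7.62 in WT thymi, 7.39, 7.02, 7.74 and 7.13 in HT thymi and 7.997, 7.61, 7.39 and 7.47 in KO thymi. WT tumors read 8.25, 9.83, 9.21, 10.18 and 8.59, HT tumors 6.86 to 9.99 (median 7.73) and KO tumors 7.72 to 9.84 (median 8.68). It averaged 7.53 ± 0.31 (SD, n = 12) in the thymi and 8.59 ± 0.996 (SD, n = 19) in the tumors, and 13 of 19 tumors lay above the highest thymus and 1 below the lowest. The difference was +1.10 (SE 0.31, adjusted p = 0.012), with all 31 fits that left out 1 array past the threshold. It was +1.304 (adjusted p = 0.000605) without the 4 tumors of highest B cell markers and +1.33 (adjusted p = 0.000529) in the 4 tumors of low 3' to 5' ratio, but +0.88 (adjusted p = 0.0633) with that ratio as a covariate and +1.18 (adjusted p = 0.0725) in female arrays alone, neither past the threshold. Of its other probe sets, 1 differed by +1.68 and the third, which lay near the floor of the arrays with means of 3.77 in thymi and 3.65 in tumors, by -0.12. Ccne2, a cyclin that activates CDK2 at the G1 to S transition, was uneven. For Ccne2 the WT thymi read 10.02, 10.09, 10.22 and 10.03, the HT thymi 9.83, 9.40, 10.28 and 9.96 and the KO thymi 9.62, 10.04, 10.11 and 10.26. Among tumors the values were 9.10, 9.11, 10.51, 9.76 and 9.73 in WT, 7.11 to 10.69 (median 9.49) in HT and 7.23 to 11.12 (median 8.92) in KO. The tumors thus lay on both sides of the thymi, and the difference was -0.48 (SE 0.40, adjusted p = 0.4). In the 4 tumors of low ratio, with 10.51, 10.69, 10.64 and 11.12 in WT 03, HT 02, HT 06 and KO 05, it was +0.93 (adjusted p = 9.34e-05), which turned the direction. Ccne1, the other cyclin E, did not pass the test. Ccne1 read 8.65, 8.70, 8.45 and 8.49 in WT, 8.35, 8.75, 8.47 and 8.34 in HT and 8.80, 8.64, 8.74 and 8.56 in KO thymi. It read 8.89, 8.62, 9.09, 9.67 and 10.07 in WT tumors, 7.87 to 10.20 (median 8.36) in HT tumors and 7.86 to 10.83 (median 8.46) in KO tumors. Its difference was +0.36 (SE 0.29, adjusted p = 0.383), and tumors lay on both sides of the thymi here too.

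The 4 genes of origin recognition and licensing did not pass the test over all tumors, and 3 of them rose once the 4 tumors of highest B cell markers were left out. Orc1 then differed by +0.85 (adjusted p = 0.00468), Cdc6 by +0.60 (adjusted p = 0.00364) and Orc6, the smallest origin recognition subunit, by +0.43 (adjusted p = 0.00043). Over all tumors the differences were +0.34, +0.13 and +0.20, with adjusted p of 0.677, 0.86 and 0.582. Orc6 was tightly grouped: 14 of 19 tumors lay above the highest thymus and 4 below the lowest, and those below were the 4 of highest B cell markers. In the 4 tumors of low ratio Orc1 differed by +0.69, but its values of 7.371 to 8.641 overlapped those of the thymi, 7.152 to 7.507. Cdc6 and Orc6 lay above all thymi in these 4 tumors. Cdt1, which brings the helicase to the origin, differed by +0.22 (SE 0.18, adjusted p = 0.385) and passed in neither selection.

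None of the 6 subunits of the MCM2-7 helicase passed the test, and 5 of the 6 differences were below 0, that of Mcm3 being the exception. Mcm2 differed by -0.22, Mcm3 by +0.31, Mcm4 by -0.38, Mcm5 by -0.22, Mcm6 by -0.25 and Mcm7 by -0.14, with adjusted p from 0.127 to 0.625. The signals of the probe sets read for these subunits of 1 ring did not vary alike among tumors. Over the 19 tumors r with the 3' to 5' ratio was -0.497 for Mcm2, -0.169 for Mcm3 and -0.655 for Mcm4. It was -0.125 for Mcm5, -0.684 for Mcm6 and 0.18 for Mcm7. Unlike probe sets and unlike transcript levels therefore cannot be told apart. Values of Mcm2 in thymi were 11.46, 11.38, 11.19 and 11.18 in WT, 11.27, 11.46, 11.35 and 11.09 in HT and 11.56, 11.31, 11.22 and 11.14 in KO. They were 11.77, 11.11, 11.74, 10.88 and 10.95 in WT tumors, 9.95 to 11.56 (median 11.03) in HT tumors and 9.19 to 12.36 (median 10.71) in KO tumors. For Mcm2, 5 of 19 tumors lay above the highest thymus and 10 below the lowest. Thymi read 11.64, 11.54, 11.35 and 11.49 for Mcm3 in WT, 11.42, 11.40, 11.44 and 11.09 in HT and 11.86, 11.56, 11.42 and 11.14 in KO. Tumor values were 12.18, 12.39, 12.27, 12.32 and 11.62 in WT, 10.77 to 12.23 (median 11.34) in HT and 10.65 to 12.51 (median 11.96) in KO. Mcm3 was above the thymi in more tumors, with 11 above the highest thymus and 4 below the lowest, those 4 being HT 01, HT 03, KO 04 and KO 06. The level of Mcm4 was 12.19, 12.10, 12.03 and 11.95 in WT thymi, 11.99, 12.15, 12.02 and 11.87 in HT thymi and 12.29, 12.02, 11.998 and 11.82 in KO thymi. WT tumors read 12.25, 11.35, 11.998, 11.01 and 11.25, HT tumors 10.99 to 12.10 (median 11.58) and KO tumors 10.92 to 12.52 (median 11.34). Mcm4 was low in most tumors, since 2 of 19 tumors lay above the highest thymus and 12 below the lowest. For Mcm5 the WT thymi read 13.42, 13.27, 13.20 and 13.28, the HT thymi 13.30, 13.28, 13.31 and 12.98 and the KO thymi 13.49, 13.35, 13.19 and 13.05. Among tumors the values were 13.30, 13.25, 13.30, 13.34 and 13.15 in WT, 12.24 to 13.37 (median 12.95) in HT and 12.15 to 13.57 (median 13.21) in KO. Mcm5 had the lowest tumor SD within genotypes of the 6, 0.44, or 0.18 without the 4 low tumors. Mcm6 read 13.21, 13.09, 13 and 13.05 in WT, 13.13, 13.23, 13.08 and 12.63 in HT and 13.30, 13.11, 13.002 and 12.86 in KO thymi. It read 13.40, 12.67, 13.62, 12.27 and 12.85 in WT tumors, 11.79 to 13.50 (median 12.39) in HT tumors and 11.04 to 13.76 (median 12.42) in KO tumors. For Mcm6, 7 of 19 tumors lay above the highest thymus and 9 below the lowest. Values of Mcm7 in thymi were 13.86, 13.88, 13.57 and 13.66 in WT, 13.89, 13.91, 13.73 and 13.54 in HT and 13.92, 13.89, 13.65 and 13.50 in KO. They were 14.06, 14.10, 13.72, 14.06 and 13.67 in WT tumors, 12.45 to 14.10 (median 13.78) in HT tumors and 12.28 to 13.99 (median 13.73) in KO tumors. Without the 4 low tumors the SD within genotypes was lowest in Mcm7, at 0.17. Without those 4 tumors Mcm3 alone of the 6 passed, at +0.48 (adjusted p = 0.0107). Taking only the 4 tumors of low ratio, Mcm2 differed by +0.48, Mcm3 by +0.69 and Mcm6 by +0.43, so that the fitted differences of Mcm2 and Mcm6 turned from below to above 0. In these 4 tumors Mcm3 and Mcm6 lay above all thymi. Mcm2 read 11.555 to 12.361 there and overlapped the thymi, at 11.092 to 11.555, as did Mcm4, Mcm5 and Mcm7. Probe sets of the same gene differed in sign for Mcm2, Mcm3, Mcm4, Mcm6 and Mcm7.

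**Figure D3:**
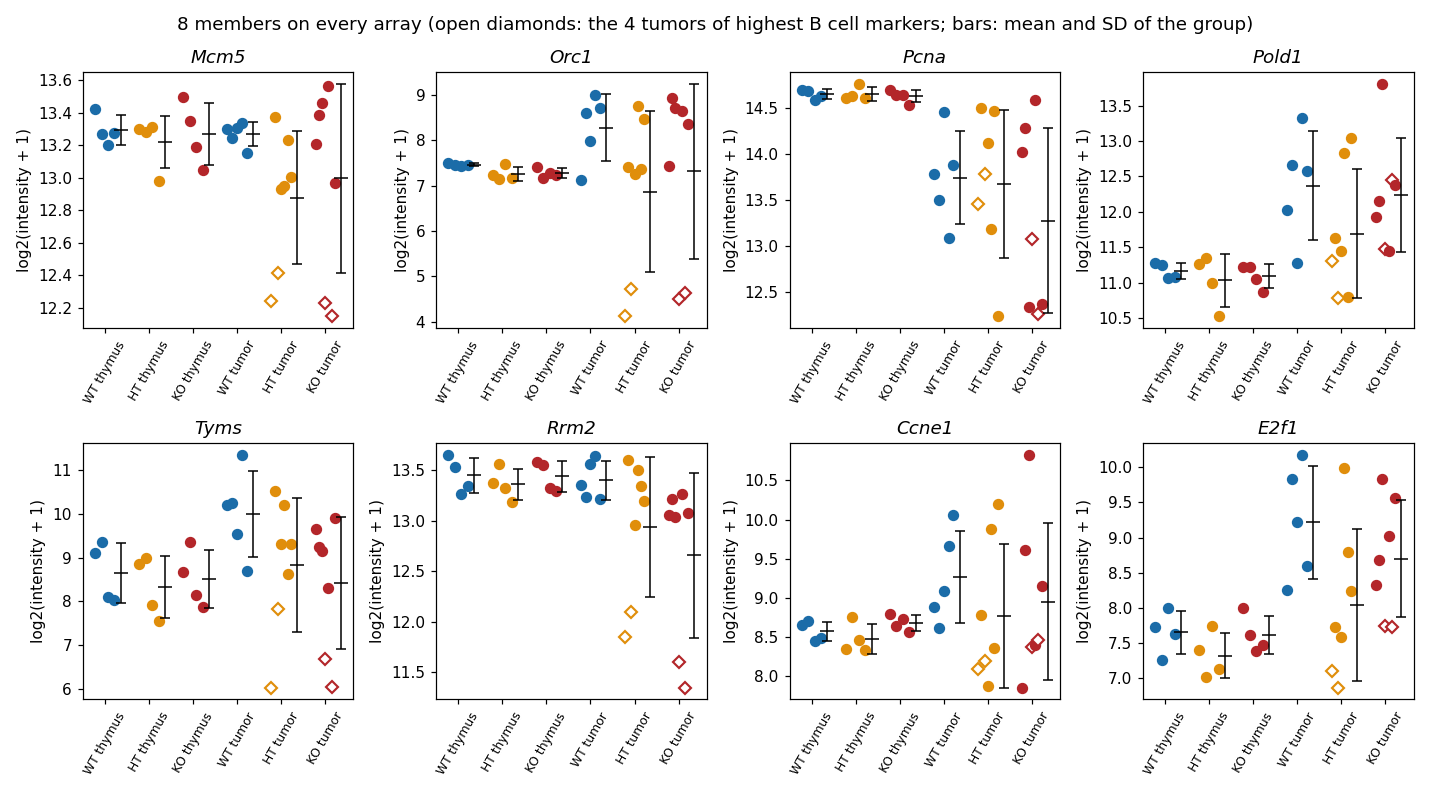
Points give log2(intensity + 1) on single arrays for Mcm5, Orc1, Pcna, Pold1, Tyms, Rrm2, Ccne1 and E2f1 in the 6 groups, open diamonds mark the 4 tumors of highest B cell markers, and bars give the group mean and SD. Thymus genotypes overlap in every panel, and the diamonds lie below all other tumors for Mcm5, Orc1, Tyms and Rrm2 but not for Pcna, Pold1, Ccne1 and E2f1.

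Genes that turn the loaded ring into a helicase did not pass the test over all tumors. Mcm10 differed by +0.24 (SE 0.53, adjusted p = 0.765), Cdc45 by -0.50 (SE 0.46, adjusted p = 0.445) and the GINS subunits Gins1, Gins2 and Gins4 by -0.30, -0.13 and -0.36. Mcm10 passed without the 4 tumors of highest B cell markers, at +0.75 (adjusted p = 0.0115). With the 4 tumors of low ratio Mcm10, Cdc45, Gins2 and Gins4 passed, and Gins1 did not. Gins2 read 9.10, 8.74, 8.76 and 9.55 in WT 03, HT 02, HT 06 and KO 05, all above the highest thymus at 8.46, and differed by +1.02 (adjusted p = 1.55e-06). Cdc45 averaged 8.62 ± 0.16 (SD, n = 12) in the thymi and 7.96 ± 1.43 (SD, n = 19) in the tumors. In those 4 tumors it differed by +0.79 (adjusted p = 3.35e-05), in the direction opposite to that over all tumors.

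Of the clamp and clamp loader genes Pcna fell, Rfc2 rose, and the other 3 did not pass the test. Pcna, which encodes the clamp that holds polymerase on DNA, gave the largest fall of the 39 genes. Thymi read 14.70, 14.69, 14.59 and 14.63 for Pcna in WT, 14.62, 14.63, 14.77 and 14.62 in HT and 14.70, 14.65, 14.65 and 14.54 in KO. Tumor values were 13.79, 13.50, 14.46, 13.09 and 13.88 in WT, 12.23 to 14.51 (median 13.78) in HT and 12.26 to 14.59 (median 13.07) in KO. It was bright and even in the thymi, and no tumor lay above the highest thymus while 18 of 19 lay below the lowest. It averaged 14.65 ± 0.06 (SD, n = 12) in the thymi and 13.55 ± 0.81 (SD, n = 19) in the tumors, a difference of -0.97 (SE 0.27, adjusted p = 0.0102), and all 31 fits that left out 1 array kept it past the threshold. The signal of its single probe set moved with the 3' to 5' ratio over the 19 tumors (Pearson r = -0.842, or -0.882 without the 2 tumors of most extreme ratio). With the ratio as a covariate the difference was -0.48 (adjusted p = 0.0378). In the 4 tumors whose ratio was not above the thymi, with 14.46, 14.51, 14.47 and 14.59, it was -0.15 (adjusted p = 0.0785), which ended the call. Rfc2, a subunit of the clamp loader, rose by +0.46 (SE 0.17, adjusted p = 0.0413). The level of Rfc2 was 10.86, 10.68, 10.78 and 10.87 in WT thymi, 10.93, 11.03, 10.91 and 10.74 in HT thymi and 10.95, 10.90, 10.95 and 10.61 in KO thymi. WT tumors read 11.35, 11.81, 10.88, 11.78 and 11.69, HT tumors 10.73 to 12.14 (median 10.89) and KO tumors 10.85 to 12.45 (median 11.39). For Rfc2, 13 of 19 tumors lay above the highest thymus and 0 below the lowest. It too moved with the ratio (r = 0.656), and the difference was +0.23 (adjusted p = 0.277) with the ratio as a covariate and +0.10 (adjusted p = 0.411) in the 4 tumors of low ratio. In female arrays alone it was +0.50 (adjusted p = 0.145), which also ended the call. The call was lost in 13 of 31 fits that left out 1 array: WT thymus F_01 or F_02, HT thymus F_01, F_02 or M_02, KO thymus F_01, F_02 or M_02, WT tumor 02, 04 or 05, HT tumor 05, or KO tumor 02, with adjusted p of 0.0501 to 0.0924. Rfc3, Rfc4 and Rfc5 did not pass, at -0.18, -0.71 and -0.24. Rfc4 averaged 11.58 ± 0.11 (SD, n = 12) in the thymi and 10.62 ± 1.07 (SD, n = 19) in the tumors. In the 4 tumors of low ratio the fitted differences were +0.91 for Rfc3, +0.41 for Rfc4 and +0.51 for Rfc5. There Rfc3 lay above all thymi. Rfc4, at 11.467 to 12.405, overlapped the thymi (11.42 to 11.812), and so did Rfc5, at 10.416 to 10.952 (9.963 to 10.47).

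Of the single-strand binding subunits Rpa2 rose and Rpa1 did not pass the test. For Rpa2 the WT thymi read 10.54, 10.36, 10.62 and 10.62, the HT thymi 10.55, 10.44, 10.58 and 10.39 and the KO thymi 10.62, 10.48, 10.58 and 10.39. Among tumors the values were 10.94, 11.35, 11.08, 11.17 and 11.68 in WT, 10.38 to 11.27 (median 10.77) in HT and 10.07 to 11.30 (median 10.71) in KO. The difference was +0.41 (SE 0.13, adjusted p = 0.0252), and 15 of 19 tumors lay above the highest thymus and 2 below the lowest. It stayed past the threshold with the ratio as a covariate, at +0.45 (adjusted p = 0.0294), without the 4 tumors of highest B cell markers, at +0.46 (adjusted p = 0.00158), and in the 4 tumors of low ratio, at +0.58 (adjusted p = 0.000438). Its call was lost without WT thymus F_02, HT thymus F_02, KO thymus F_02 or KO tumor 02 (adjusted p of 0.0501 to 0.068), and in female arrays alone, at +0.43 (adjusted p = 0.101). Another Rpa2 probe set gave -1.17, so that the mean over the gene's probe sets turned the direction, to -0.31. Rpa1 gave -0.24 (SE 0.095, adjusted p = 0.064) over all tumors. It passed in 9 of 14 other settings, among them -0.30 (adjusted p = 0.033) with the ratio as a covariate, -0.27 (adjusted p = 0.0391) without the 4 tumors of highest B cell markers and -0.54 (adjusted p = 0.00097) in the 4 tumors of low ratio, where it was the 1 gene of the 39 that fell.

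Among the primase and polymerase genes Pold1 rose, and the primase genes lay above the highest thymus in 14 of 19 tumors. Pold1 encodes the catalytic subunit of polymerase delta. Pold1 read 11.28, 11.24, 11.07 and 11.07 in WT, 11.26, 11.35, 10.99 and 10.52 in HT and 11.22, 11.21, 11.05 and 10.87 in KO thymi. It read 12.02, 12.65, 11.28, 13.32 and 12.58 in WT tumors, 10.79 to 13.04 (median 11.45) in HT tumors and 11.44 to 13.81 (median 12.15) in KO tumors. For Pold1, 15 of 19 tumors lay above the highest thymus and 0 below the lowest, and the difference was +0.89 (SE 0.28, adjusted p = 0.0206), with all 31 fits that left out 1 array past the threshold. Its signal moved upward with the 3' to 5' ratio (r = 0.669 over 19 tumors), and KO tumor 03 held the highest value, 13.81. The difference was +0.47 (adjusted p = 0.146) with the ratio as a covariate and +0.052 (adjusted p = 0.811) in the 4 tumors of low ratio, both short of the threshold. The call was also lost in female arrays alone, at +0.86 (adjusted p = 0.143), and, as its probe set carries the _x_ mark of probes that can match other transcripts, with probe sets of no _s_ or _x_ mark, at +0.55 (adjusted p = 0.0993). Prim1 and Prim2, the primase subunits, each had 14 tumors above the highest thymus and the 4 tumors of highest B cell markers below the lowest, as did Pole, which encodes the catalytic subunit of polymerase epsilon. Prim1 averaged 11.69 ± 0.13 (SD, n = 12) in the thymi and 12.16 ± 0.97 (SD, n = 19) in the tumors, and Pole 9.59 ± 0.28 (SD, n = 12) in the thymi and 10.26 ± 1.12 (SD, n = 19) in the tumors. Without those 4, Prim1 differed by +0.80 (adjusted p = 0.00261), Prim2 by +0.76 (adjusted p = 0.000396), Pole by +0.97 (adjusted p = 0.000469) and Pola2, the second subunit of polymerase alpha, by +0.62 (adjusted p = 4.43e-05). These 4 genes, Pola1 at +0.54 (adjusted p = 0.000325) and Pole2 at +0.33 (adjusted p = 0.00585) passed in the 4 tumors of low ratio. Pold2, the second subunit of polymerase delta, did not follow Pold1 and gave -0.34 (SE 0.24, adjusted p = 0.308) over all tumors.

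Both lagging strand genes, as read by the probe set of highest mean, were short of the threshold over all tumors and rose without the 4 tumors of highest B cell markers. Fen1, the flap endonuclease, differed by +0.39 (SE 0.18, adjusted p = 0.123) over all tumors and +0.54 (adjusted p = 0.00136) without the 4 tumors of highest B cell markers. Lig1, the ligase that seals Okazaki fragments, differed by +0.30 (SE 0.28, adjusted p = 0.464) and +0.57 (adjusted p = 0.00104). In both, 14 tumors lay above the highest thymus and the 4 tumors of highest B cell markers lay below the lowest. Fen1 differed by +0.25 and Lig1 by +0.49 in the 4 tumors of low ratio. The Fen1 probe set carries the _x_ mark. Its other probe set averaged 10.81 in thymi and 10.49 in tumors. That one differed by -0.30 over all tumors and -0.11 without the 4 tumors of highest B cell markers, so the rise of Fen1 is that of 1 probe set.

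None of the 4 genes of deoxynucleotide synthesis passed the test over all tumors. Rrm2, the small subunit of ribonucleotide reductase that limits its activity in S phase, was even outside the 4 low tumors. Values of Rrm2 in thymi were 13.65, 13.53, 13.26 and 13.35 in WT, 13.38, 13.56, 13.32 and 13.18 in HT and 13.58, 13.55, 13.32 and 13.29 in KO. They were 13.35, 13.24, 13.56, 13.64 and 13.21 in WT tumors, 11.85 to 13.60 (median 13.20) in HT tumors and 11.35 to 13.26 (median 13.05) in KO tumors. No tumor lay above the highest thymus and 8 lay below the lowest, and the difference was -0.43 (SE 0.22, adjusted p = 0.159). Without the 4 tumors of highest B cell markers it was -0.21 (adjusted p = 0.0408). The other Rrm2 probe sets differed by -0.79 and -1.94, and the mean of all its probe sets gave -1.03 (adjusted p = 0.0218), which passed, as did -0.39 (adjusted p = 0.0103) with array weights. Rrm1, the large subunit, averaged 11.75 ± 0.11 (SD, n = 12) in the thymi and 11.03 ± 0.81 (SD, n = 19) in the tumors. Its difference was -0.64 (SE 0.28, adjusted p = 0.095), and +0.31 (adjusted p = 0.0101) in the 4 tumors of low ratio, in the opposite direction. Tyms makes thymidylate from deoxyuridylate. Thymi read 9.11, 9.36, 8.11 and 8.03 for Tyms in WT, 8.85, 8.99, 7.91 and 7.54 in HT and 8.67, 9.37, 8.13 and 7.88 in KO. Tumor values were 10.20, 10.26, 9.53, 11.35 and 8.69 in WT, 6.02 to 10.52 (median 9.31) in HT and 6.03 to 9.91 (median 9.15) in KO. Its difference was +0.41 (SE 0.48, adjusted p = 0.559), within the wide spread of both tissues, and +0.83 (adjusted p = 0.0226) without the 4 tumors of highest B cell markers. Tk1, the S phase thymidine kinase, gave +0.049 (SE 0.32, adjusted p = 0.927) over all tumors and +0.84 (adjusted p = 0.000111) in the 4 tumors of low ratio.

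The tumors whose 3' to 5' ratio was not above the thymi gave the highest count of replication genes above the thymi of the comparisons run. None of them is among the 4 tumors of highest B cell markers, so this selection leaves those out as well. Leaving out those 4 alone, which keeps tumors of higher ratio, gave 16 of the 39 higher and 3 lower. In that setting 16.5% of all genes were higher and 16.9% lower. The part of a low ratio and of the absence of those tumors in the count was not tested. In 17 of the 39 genes all 4 of these tumors lay above all 12 thymi, and in 1 (Rpa1) all 4 lay below, where 9.27% of all genes tested lay wholly above and 11.4% wholly below. The 17 were Mcm3, Mcm6, Mcm10, Cdc6, Cdc45, Gins2, Orc6, Rfc3, Rpa2, Prim1, Prim2, Pole, Fen1, Lig1, Tk1, Rrm1 and Ccne2. The ratio moved with single genes in both directions over the 19 tumors: r was below -0.5 in 8 genes, led by Pcna (-0.842), Rfc3 (-0.804) and Mcm6 (-0.684), and above 0.5 in 4, which were Pold1, Rfc2, Cdt1 and Ccne1. Without the 2 tumors of most extreme ratio r was -0.728 for Rfc3, -0.75 for Mcm6 and 0.825 for Pold1. These correlations are over tumors that share an array design and a normalisation and are given as description. The share of all genes past the same values of r was not counted. The counts of 8 and 4 therefore cannot be read as particular to replication genes. In the same 4 tumors, against the thymi, markers of double-negative thymocytes and Notch targets were higher in 7 of 8, double-positive markers lower in 6 of 6, fibroblast markers higher in 7 of 8 and macrophage markers higher in 5 of 8. Their part in the 26 higher replication genes was not tested either.

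The contrast of tumor with thymus was also taken within each genotype, to see whether it depended on NDR1. No member of the 39 passed within WT, HT or KO, where 6.56%, 3.5% and 4.76% of all genes did. At an unadjusted p under 0.05 there were 6, 1 and 5 of the 39, and 3046, 2113 and 2741 of the 14016 genes. The median difference over the 39 genes was +0.38 in WT, -0.27 in HT and -0.28 in KO, given without that of all genes. The 4 tumors of highest B cell markers are all HT or KO, so these medians do not separate genotype from those tumors. Among them the mean over the 39 genes was 9.48 and 9.67 in HT, and 9.43 and 9.06 in KO. It was 10.46 to 11.07 in the other HT tumors, against 10.49 to 10.76 in HT thymi. In the other KO tumors it was 10.58 to 11.33, against 10.56 to 10.84 in KO thymi. Closest to the threshold was Rpa2 in WT, at +0.71 (SE 0.23, adjusted p = 0.0577). E2f1 gave +1.53 in WT, +0.70 in HT and +1.06 in KO, and Pcna -0.77, -0.88 and -1.25. The test of the difference itself, HT minus WT and KO minus WT, found no gene of the 39 and 0.0% and 0.0% of all genes (limma), with 0 and 0 of the 39 (and 147 and 119 of all genes) at an unadjusted p under 0.05. With the tumors of low ratio, the median for KO minus WT was +0.24 over the 39 genes and +0.059 over all genes. That contrast rests on 1 WT and 1 KO tumor, so the spread between tumors cannot be read and no count is given.

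Normal thymi of the 3 genotypes were compared to see whether loss of NDR1 alone is accompanied by a change in replication genes. No gene of the 39 passed the test in any pair of genotypes (limma). Over all genes tested 0.0214% were called for HT against WT, 0.186% for KO against WT and 0.0571% for KO against HT. At an unadjusted p under 0.05 there were 2, 0 and 1 of the 39 and 946, 700 and 1174 of all genes, and the median differences were -0.066, -0.023 and +0.016. The comparisons with WT share the same 4 WT arrays. The lowest differences for HT against WT were E2f1 at -0.33 (SE 0.20, adjusted p = 0.751), Tyms at -0.33, Ccne2 at -0.22, Cdc6 at -0.20 and Orc1 at -0.19, and the highest Gins4 at +0.14. For KO against WT they were Orc1 at -0.18 (SE 0.089, adjusted p = 1), Prim1 at -0.15, Mcm10 at -0.15, Tyms at -0.14 and Pole2 at -0.11, and the highest was Ccne1 at +0.11. Orc1 averaged 7.46 ± 0.033 in WT, 7.26 ± 0.15 in HT and 7.28 ± 0.11 in KO (SD, n = 4 each), Cdc6 10.66 ± 0.15 in WT, 10.46 ± 0.22 in HT and 10.65 ± 0.20 in KO and Mcm10 8.85 ± 0.19 in WT, 8.70 ± 0.30 in HT and 8.69 ± 0.18 in KO. The SD of Orc1 pooled within genotypes was 0.11 in thymi, against 1.65 in tumors.

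Tumors of the 3 genotypes were compared in the same way. No gene of the 39 passed, and 0.0% of all genes did for HT against WT, 0.0% for KO against WT and 0.0% for KO against HT (limma). At an unadjusted p under 0.05 there were 2, 1 and 0 of the 39, and 390, 473 and 154 of all genes. The median difference over the 39 genes was -0.56 for HT against WT, with 0 of 39 above 0. For tumors labelled KO against WT it was -0.57, with 1 of 39 above 0. The share of all genes above 0 was not counted, and the 39 genes were correlated over the tumors (median r between pairs 0.646). These counts therefore cannot be read as particular to replication genes or as 39 separate results. Both comparisons with WT rest on the same 5 WT tumors. Without the 4 tumors of highest B cell markers, all of them HT or KO, the medians were -0.19 and -0.044. For KO against HT the median was -0.0088, or +0.12 without those 4. The lowest differences for KO against WT were Tyms at -1.69 (SE 0.81, adjusted p = 0.874), Cdc45 at -1.46, Mcm10 at -1.39, Prim2 at -1.33 and Cdc6 at -1.19. For HT against WT they were Orc1 at -1.58 (SE 0.93, adjusted p = 0.936), Mcm10 at -1.53, Tyms at -1.29, Cdc45 at -1.17 and E2f1 at -1.13. Group means of Tyms in tumors were 10.01 ± 0.98 in WT, 8.83 ± 1.54 in HT and 8.43 ± 1.51 in KO, those of Orc1 8.29 ± 0.75 in WT, 6.87 ± 1.78 in HT and 7.32 ± 1.94 in KO, and those of Mcm10 9.93 ± 0.43 in WT, 8.46 ± 1.70 in HT and 8.59 ± 1.97 in KO (SD, n = 5, 7 and 7). Cdc45 averaged 8.84 ± 0.43 in WT, 7.79 ± 1.38 in HT and 7.50 ± 1.78 in KO, Prim2 11.18 ± 0.50 in WT, 10.31 ± 0.97 in HT and 9.97 ± 1.54 in KO and Cdc6 11.37 ± 0.28 in WT, 10.37 ± 1.42 in HT and 10.25 ± 1.89 in KO. In each of these genes the HT and KO tumors spread more widely than the WT tumors. These SDs include the 4 tumors of highest B cell markers, which are all HT or KO. Without those 4 the tumor SD pooled within genotypes was lower in each of these genes. For Orc1 it went from 1.65 to 0.68 and for Cdc6 from 1.45 to 0.45. A link between genotype and spread was not tested.

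Sex entered every fit as a covariate, and the 12 thymi, 6 of them female, allow it to be read on its own. This comparison was chosen after the data were seen. Female thymi were higher in 10 of the 39 genes and lower in none at an adjusted p under 0.05 (limma), where 10.7% of all genes were higher and 15.2% lower, and the median difference was +0.10 over the 39 and -0.036 over all genes. Tyms differed most, by +1.12 (SE 0.12, adjusted p = 0.000142): it read 8.67 to 9.37 (median 9.05) in 6 females and 7.54 to 8.13 (median 7.97) in 6 males, without overlap. The 3 other Tyms probe sets differed by +0.02, -0.02 and +0.26, and 2 of the 3 lay near the floor of the arrays, so the difference is that of 1 probe set. The other 9 were Pold2 at +0.41, Pole at +0.36, Lig1 at +0.34, Pold1 at +0.33, Mcm7 at +0.28, Rrm2 at +0.25, Cdt1 at +0.22, Rfc5 at +0.21 and Mcm2 at +0.21. Values of females and males did not overlap in Mcm6, Mcm7, Pold1, Lig1, Tyms and Rrm2, of which Mcm6 did not pass. The share of all genes without such overlap was not counted, so this cannot be read as particular to replication genes. In the same thymi females were higher in 8 of 8 macrophage markers, 6 of 8 markers of thymic epithelium, 5 of 8 markers of double-negative thymocytes and Notch targets and 5 of 23 mitosis genes, and their part in the difference was not tested. The count fell to 5 without HT thymus M_02 or without WT thymus F_01, to 6 without HT thymus F_02, KO thymus F_01 or KO thymus M_02, and to 0 in 1 fit of all 31 arrays.

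Over the 19 tumors the 39 genes were correlated with each other, and less so without the 4 low tumors. The median r between pairs was 0.646 over 19 tumors, 0.268 over the 15 left without the 4 tumors of highest B cell markers and 0.327 over 12 thymi, and 657, and then 473, of 741 pairs were above 0 in the tumors. The tumors fall into those 4 and the other 15, so each value over all tumors is set beside that within the 15. Against the mean of the other 38, r over all tumors was highest for Gins1 (0.971 and 0.717), Rrm2 (0.965 and 0.633), Orc6 (0.962 and 0.612) and Mcm5 (0.96 and 0.715), and lowest for Rpa1 (-0.251 and 0.127), Rfc2 (0.139 and -0.018) and Pold1 (0.234 and -0.164), with the value within the 15 given second. Mitosis genes followed the mean of the 39, with r of 0.953 over all tumors and 0.83 without the 4, as did chromatin assembly genes of the fork, with 0.974 over all tumors and 0.741 without the 4. The B cell marker mean ran the other way over all tumors, with r of -0.852, and not within the other 15, with -0.0706. Stk38 gave -0.437 over all tumors and -0.253 without the 4, and the 3' to 5' ratio -0.0826 over all tumors and -0.444 without the 4. The genes outside the list whose level was most like the mean of the 39 over the tumors were Lrr1 (0.975), Nt5dc2 (0.974), Kif11 (0.969), Kntc1 (0.969), Nup107 (0.965), Ect2 (0.964), Ticrr (0.963), Trip13 (0.962), Clspn (0.962) and 2810408A11Rik (0.962), by Pearson r over 19 arrays. Within the 15 the same r was 0.812 for Lrr1 and 0.601 for Clspn. All of these correlations describe arrays that share the 4 low tumors and the normalisation, and no p is given for them.

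**Figure D4:**
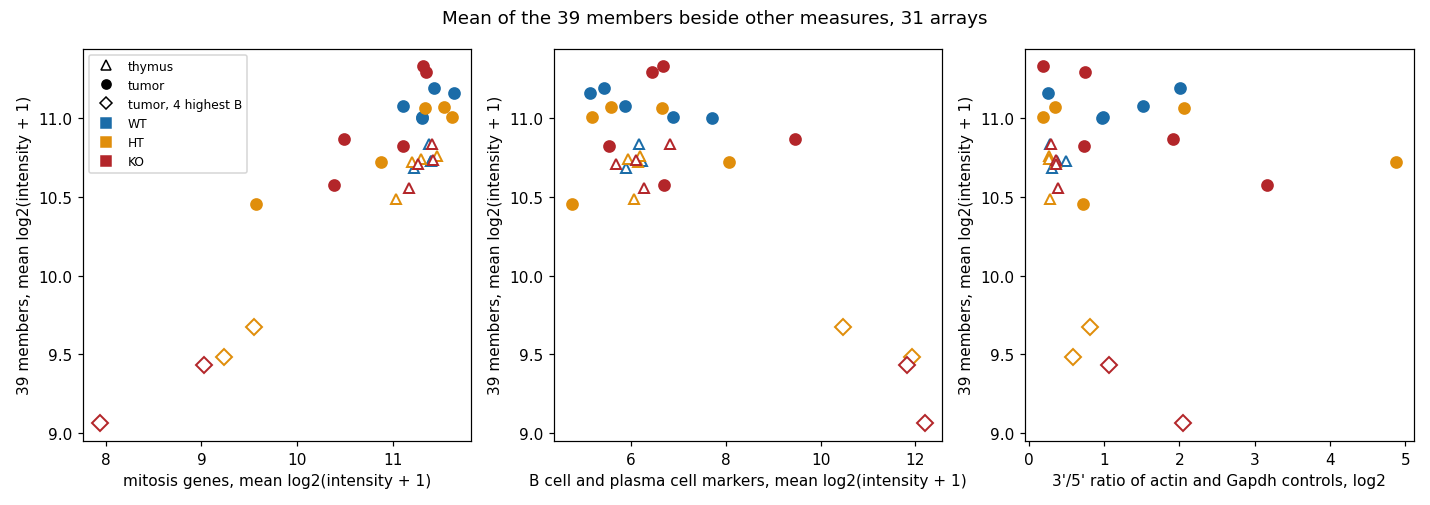
The mean log2(intensity + 1) of the 39 genes on each of 31 arrays is set against the mean of mitosis genes, the mean of B and plasma cell markers and the 3' to 5' control ratio (log2); triangles are thymi, circles tumors and diamonds the 4 tumors of highest B cell markers. The diamonds lie apart from the other arrays, with a mean over the 39 genes of 9.06 to 9.67.

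Other genes of the same pathway were read from fixed lists, again tumor against thymus. The counts stand beside those of all genes, of which 11.6% were higher and 12.6% lower over all tumors, 16.5% and 16.9% without the 4 tumors of highest B cell markers, and 24.9% and 23.3% in the 4 tumors of low ratio. Of other replication fork and licensing genes the counts were 4 higher and 1 lower of 35 over all tumors, 16 higher and 1 lower without the 4 tumors of highest B cell markers, and 22 higher and 1 lower in the 4 tumors of low ratio. Orc2 gave +0.75 (adjusted p = 0.0112), the large clamp loader subunit Rfc1 +0.44 (adjusted p = 0.00335), the polymerase delta subunit Pold3 +0.57 (adjusted p = 0.0386) and Rpa3, the smallest RPA subunit, -1.17 (adjusted p = 0.017). Chromatin assembly genes gave 1 higher and 1 lower of 11 over all tumors, 6 higher and 1 lower without the 4 tumors of highest B cell markers, and 8 higher and 0 lower in the 4 tumors of low ratio, with Tonsl, which acts on newly replicated chromatin, at +1.91 (adjusted p = 0.00415) and Slbp, the histone mRNA binding protein, at -0.68 (adjusted p = 0.0114). Other nucleotide supply genes gave 5 higher and 1 lower of 14 over all tumors, 7 higher and 2 lower without the 4 tumors of highest B cell markers, and 12 higher and 2 lower in the 4 tumors of low ratio, with the pyrimidine enzyme Cad at +1.23 (adjusted p = 0.00379), the purine enzyme Atic at +1.15 (adjusted p = 0.000485), Nme1 at +0.57 (adjusted p = 0.00462) and deoxycytidine kinase, Dck, at -0.89 (adjusted p = 0.000213). Other G1 to S regulators moved both ways, with 4 higher and 9 lower of 29 over all tumors, 7 higher and 10 lower without the 4 tumors of highest B cell markers, and 13 higher and 8 lower in the 4 tumors of low ratio. Cyclin D1, Ccnd1, gave +4.21 (adjusted p = 1.19e-05), while the repressor E2f7 gave -2.004 (adjusted p = 0.000116), the activator E2f2 -1.33 (adjusted p = 0.000137) and the pocket protein Rbl2 -1.14 (adjusted p = 0.00089). Mitosis genes gave 0 higher and 4 lower of 23 over all tumors, 0 higher and 4 lower without the 4 tumors of highest B cell markers, and 5 higher and 1 lower in the 4 tumors of low ratio, and those that fell included Ccnb2 at -1.33 (adjusted p = 0.0119), Ube2c at -1.36 (adjusted p = 0.013), Prc1 at -0.96 (adjusted p = 0.0333) and Nusap1 at -1.01 (adjusted p = 0.0348). The medians over all tumors were -0.61 for mitosis genes and -0.13 for the 39 replication genes.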

How the data were processed

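The deposited values are linear intensities of 45101 probe sets on 31 Affymetrix mouse arrays, made by the authors with GCRMA per the submitters' processing notes (version not stated there). The arrays share 1 median, so no further normalisation was applied; the number of arrays limits the precision. The labels' protocol names a whole-transcript labelling kit, while this array reads 3' ends. Probe sets naming 1 gene in the platform annotation were kept, each gene was read by its probe set of highest mean log2(value + 1), and genes whose mean was below 3.61, the 25th percentile of probe set means, were left out (14016 of 18193 kept). Differences were fitted with lmFit and eBayes of limma (version 3.58.1, run in R 4.3.3), with sex as a covariate, separately for the 12 thymi, the 19 tumors and all 31 arrays, and p-values adjusted by Benjamini-Hochberg over all genes tested; the script was tested on simulated data. Values on every array or group were given for Mcm2 to Mcm7, Pcna, E2f1, Ccne1, Ccne2, Tyms and Rrm2 and, as levels or differences, for the largest rises and falls of a comparison; called members of pathway lists were named by smallest p, at most 4 a list. Array numbers did not pair samples: same-numbered arrays correlated over 0.1 in 1 of 12 thymus and 3 of 17 tumor pairs. The 39 genes and all lists were chosen with earlier results of these data known. Promoter windows are RefSeq's for GRCm38.p6, the first listed for each gene. Alternatives were other pseudocounts, filters, probe set rules, normalisation, variance models and covariates, and fits without single arrays or without the tumors named in the text.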

Additional observations from a re-analysis of the deposited data

Results flagged for a closer look

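In 10 of 240 groups of values tested, 1 array stood apart from the others of its group by Dixon's criterion, which chance gives in about 1 of 20 groups. Mcm3 was the lowest of its group in HT thymus M_02, at 11.09, against 11.40 in the nearest of the other arrays. Mcm3 was the lowest of its group in WT tumor 05, at 11.62, against 12.18 in the nearest of the other arrays. Mcm5 was the lowest of its group in HT thymus M_02, at 12.98, against 13.28 in the nearest of the other arrays. Pcna was the highest of its group in HT thymus M_01, at 14.77, against 14.63 in the nearest of the other arrays. Rfc2 was the lowest of its group in KO thymus M_02, at 10.61, against 10.90 in the nearest of the other arrays. Rfc2 was the highest of its group in KO tumor 03, at 12.45, against 11.43 in the nearest of the other arrays. Pold1 was the highest of its group in KO tumor 03, at 13.81, against 12.45 in the nearest of the other arrays. Pold2 was the highest of its group in WT thymus F_01, at 10.55, against 10.12 in the nearest of the other arrays. Pold2 was the lowest of its group in WT tumor 05, at 9.59, against 10.36 in the nearest of the other arrays. The mean of the 39 genes was the lowest of its group in HT thymus M_02, at 10.49, against 10.72 in the nearest of the other arrays. HT thymus M_02 holds 3 of these values, WT tumor 05 and KO tumor 03 hold 2 each.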

How the results depend on the processing

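Of the 39 genes, 0 passed for genotype within thymi and within tumors, and for HT minus WT, in each alternative run, the replicate block included (0 members called with it). The share of all genes called in the same setting stands in brackets. For tumor against thymus 5 passed (24.2%); the count was 3 with the 3' to 5' ratio as a covariate (18%), 16 with array weights (46.3%), 1 in female arrays alone (10.5%), 10 with no sex covariate (35.7%), 19 without the 4 tumors of highest B cell markers (33.4%), 27 with only the 4 tumors of low ratio (48.2%), chosen after seeing the data, and 3 to 7 without single arrays, being 3 without HT, KO or WT thymus F_02. Within HT it was 0 (3.5%), but 1 with array weights (15.9%) and 17 with only the tumors of low ratio (30.3%). Within KO it was 0 (4.76%), but 5 with array weights (17.7%), 1 with no sex covariate (6.79%), 5 without the 4 tumors of highest B cell markers (11.5%), 24 with the tumors of low ratio (33.9%) and 0 to 1 without single arrays (1 without HT tumor 07 or KO tumor 05). Within WT it was 0 (6.56%), but 1 with the ratio as a covariate (7.18%), 12 with array weights (30.5%), 2 with no sex covariate (9.84%), 1 with a pseudocount of 16 (6.65%), 7 without the 4 tumors of highest B cell markers (11.7%), 15 with the tumors of low ratio (27.6%) and 0 to 2 without single arrays (2 without WT tumor 01; 1 without HT tumor 03, 04 or 05 or KO tumor 05 or 06). For KO minus WT it was 0 (0%) in every setting but that of the tumors of low ratio, which holds 1 tumor of each of these genotypes. For female against male thymi it was 10 (25.9%), but 0 in 1 fit of all arrays (0.228%), 6 with the ratio as a covariate (25%), 17 with trended and robust variance (28.6%) and 5 to 13 without single arrays. With only the tumors of low ratio 34 of the 39 differences over all genotypes were above 0, against 19 over all tumors, and of the genes that passed in either setting direction turned for Ccne2 +0.93, Cdc45 +0.79, Gins2 +1.02, Gins4 +0.23, Mcm2 +0.48, Mcm6 +0.43, Pola1 +0.54, Pole2 +0.33, Rfc3 +0.91, Rfc4 +0.41, Rfc5 +0.51 and Rrm1 +0.31 over all genotypes and, among the genes followed within a genotype, Ccne2 +0.95, Cdc45 +0.53 and Rrm1 +0.33 in HT and Ccne2 +1.26, Cdc45 +0.96, Mcm2 +0.95, Mcm6 +0.57 and Rfc4 +0.95 in KO, in 1 fit of all arrays for Mcm2 in female against male thymi, at -0.20, and with the mean of all probe sets for Rpa2, at -0.31. The low-ratio values within KO and WT are those of 1 tumor each, KO 05 and WT 03, against thymi. Settings that leave out arrays change the samples compared. For the other settings the cause was not tested. Added after seeing the data were also arrays centred on their median difference and probe sets with no _s_ or _x_ mark. Probe sets of 1 gene differed in sign in 14 of the 28 genes that have at least 2 above the filter.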
